A study of Mus musculus with 2 samples.

Results

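Among the 32285 genes measured in immune cells of mouse lung tumours, 7 are described here. They are the chemokines Ccl3, Ccl4, Ccl5 and Xcl1, the chemokine receptors Ccr1 and Xcr1, and the chemerin-binding receptor Ccrl2, and they were taken by symbol from a list of ligands and their receptors. The data are 2 droplet single-cell RNA libraries, 1 per group, of cells sorted as CD4 or CD8 positive. LYZKL is tumour-model hosts, whose alleles include Lkb1fl/fl, with Tmem173fl/fl;Lyz2-Cre bone marrow, and WTKL is the same hosts with Tmem173fl/fl bone marrow. In both, the hosts had been lethally irradiated, and the lungs were taken 8 weeks after intranasal Ad-Cre, which starts the tumours. Lyz2-Cre acts in myeloid cells, so that the floxed Tmem173 gene, which codes for the DNA-sensing adaptor STING, is the target in neutrophils and macrophages rather than in T cells. Host cells that outlive the irradiation are not of donor genotype. The treatment label of WTKL alone also names tamoxifen, so that this agent and the genotype cannot be told apart if it was given. The labels do not say how many mice were pooled, or which exons of Tmem173 are floxed, and reads from transcript ends do not check the deletion.

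With 1 library per group there was no test between the groups and no replicate spread. Every interval given is a 95% interval of counting error only. A difference is named here as higher or lower between the libraries, and it is called where it reached 1.5-fold at 5 CPM or more in the higher library. CPM is the UMIs (unique molecules) of a gene per 1000000 UMIs of all barcodes of the class in 1 library. Levels are therefore compared per gene, and a ratio of 2 genes only between classes. Tmem173 stood at 4.19 CPM in LYZKL neutrophils and 20.7 CPM in WTKL neutrophils, and at 42.1 CPM in LYZKL macrophages and 46.2 CPM in WTKL macrophages. It was also apart in T cells, at 47.1 CPM in LYZKL and 23.1 CPM in WTKL in CD4 T cells and at 77.7 CPM in LYZKL and 30.2 CPM in WTKL in Treg, and stood at 34.8 CPM in LYZKL and 36.4 CPM in WTKL in CD8 T cells.

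Chemokines are small secreted proteins that guide leukocytes along a gradient by binding receptors coupled to G proteins. Ccl3 and Ccl4 are made by activated CD8 T cells, natural killer cells, macrophages and neutrophils. Ccl3 binds Ccr1 among other receptors. Ccl5 is stored and released by memory and effector T cells and binds Ccr1 and Ccr3 among others. Xcl1 is released by activated CD8 T cells and natural killer cells, and its receptor Xcr1 marks the dendritic cells that cross-present antigen to CD8 T cells. Ccrl2 binds the attractant chemerin without signalling and presents it to neighbouring cells.

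The matrices held 13607 barcodes in LYZKL and 12204 in WTKL, where the labels state 7202 cells in LYZKL and 6609 in WTKL. Of these, 13451 in LYZKL and 12003 in WTKL passed the filters (500 or more genes detected, no more than 10% of UMIs coded by mitochondria), with a median of 5327 UMIs in LYZKL and 4840 UMIs in WTKL. The label T cells held for most but not all of them. Barcodes with at least 6 UMIs of 8 T cell genes and below the gates of other lineages made up 63.3% in LYZKL and 67.4% in WTKL, and neutrophils made up 14.1% in LYZKL and 10.8% in WTKL. The classes used were CD8 (2713 barcodes in LYZKL and 2017 in WTKL), CD4 (3633 in LYZKL and 3882 in WTKL), Foxp3-positive Treg (538 in LYZKL and 479 in WTKL), neutrophil (1893 in LYZKL and 1293 in WTKL), macrophage (323 in LYZKL and 275 in WTKL) and B (322 in LYZKL and 486 in WTKL). The libraries shared 100 barcode sequences, of which 94 were kept in both and 17 fell in the same class in both. Fewer cells of a type and less RNA per cell cannot be told apart in the library totals below.

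The genes lie on 3 mouse chromosomes, with positions given here in mm10 (GRCm38) from GENCODE vM21. Ccl3 (ENSMUSG00000000982) is at chr11:83647844-83649355 on the minus strand and Ccl4 (ENSMUSG00000018930) at chr11:83662584-83664683 on the plus strand, 13228 bases apart. Ccl5 (ENSMUSG00000035042), at chr11:83525778-83530518 on the minus strand, is 117325 bases from Ccl3. Xcl1 (ENSMUSG00000026573) is at chr1:164931644-164935527 on the minus strand. On chromosome 9, all on the minus strand, Ccr1 (ENSMUSG00000025804) is at chr9:123962124-123968692, Xcr1 (ENSMUSG00000060509) at chr9:123852315-123862029 and Ccrl2 (ENSMUSG00000043953) at chr9:111054486-111057519. Xcr1 and Ccr1 are 100094 bases apart. No other measured gene overlaps any of the 7 on the same strand.

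Upstream sequence was read for 5 of the 7 genes from RefSeq (GRCm38.p6), as the 250 bases before the start site; Ccl4 and Ccl5 were not matched. The windows of Ccl3 and Xcl1 are printed because these genes showed the largest and the most barcode-dependent CD8 differences below. Capitals mark TGTGGT, the core letters bound by RUNX factors such as Runx3 of CD8 T cells, or its reverse complement ACCACA. Ccl3 is read from chr11:83649379-83649628 and Xcl1 from chr1:164935523-164935772, both on the minus strand.
Ccl3: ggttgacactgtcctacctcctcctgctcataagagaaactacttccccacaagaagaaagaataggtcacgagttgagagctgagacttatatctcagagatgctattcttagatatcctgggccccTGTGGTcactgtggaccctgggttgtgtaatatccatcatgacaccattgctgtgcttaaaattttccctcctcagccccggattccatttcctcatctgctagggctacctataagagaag
Xcl1: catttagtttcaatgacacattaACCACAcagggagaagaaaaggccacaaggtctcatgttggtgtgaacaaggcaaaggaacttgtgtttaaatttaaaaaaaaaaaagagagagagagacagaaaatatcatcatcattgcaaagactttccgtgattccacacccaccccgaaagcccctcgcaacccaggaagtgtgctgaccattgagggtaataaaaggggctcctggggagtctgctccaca

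The letters begin 122 bases before the start of Ccl3 and 227 bases before that of Xcl1, and the same motif stood 58 bases before that of Ccr1. TGTGGT was found on either strand in 14.05% of 32851 promoter windows of this length, and no overlap with another searched motif was seen. The AP-1 motif TGANTCA, found in 6.749% of windows, and the NF-kB motif, GGGNN followed by TTTCC, found in 1.412%, were in none of the 5 matched genes. Ccrl2, with 3 annotated starts, and Xcr1 held none of the 3 motifs. These matches describe the letters in the window and say nothing of binding.

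Ccl3 was higher in LYZKL than in WTKL in all 6 classes. Its level was highest in neutrophils, with 4853 CPM (4805 to 4901) in LYZKL and 2830 CPM (2784 to 2876) in WTKL, a log2 ratio of 0.78 (0.75 to 0.81). In CD8 T cells it stood at 552 CPM (540 to 564) in LYZKL and 205 CPM (197 to 212) in WTKL, a 2.70-fold difference and the largest log2 ratio of the members in that class, at 1.43. The neutrophil and CD8 intervals of the libraries are far apart.

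Macrophages held 478 CPM of Ccl3 in LYZKL, below the CD8 level, and 290 CPM in WTKL, above it (log2 0.72, 0.61 to 0.84). CD4 T cells held 36.7 CPM in LYZKL and 19.8 CPM in WTKL (log2 0.89, 0.73 to 1.06). Treg held 54.2 CPM in LYZKL and 20.4 CPM in WTKL (log2 1.41, 0.97 to 1.87), with B cells, which make little Ccl3 unless activated, at 57.9 CPM in LYZKL and 20.1 CPM in WTKL on 68 UMIs in LYZKL and 31 UMIs in WTKL. Treg and B cells were thus at the same Ccl3 level within counting error in each library, and in WTKL the CD4 level was not apart from them either.

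The share of barcodes with a Ccl3 UMI, after each barcode was thinned to 1000 UMIs, gave the same order in CD8 T cells and neutrophils. It was 21.0% in LYZKL and 11.2% in WTKL in CD8 T cells (44.4% in LYZKL and 27.8% in WTKL unthinned), and 60.6% in LYZKL and 47.7% in WTKL in neutrophils. The CD4 share was 3.06% in LYZKL and 1.96% in WTKL, below the 4.70% in LYZKL and 2.28% in WTKL of B cells. In Treg the thinned share was 3.35% in LYZKL and 3.34% in WTKL. The CD4 and Treg shares did not stand above those of B cells beyond counting error, while the CD8 shares stood above them. B cells also held a higher percent of neutrophil RNA than CD4 T cells and Treg, as given below. Before thinning, the median depth in CD8 T cells was 4635 UMIs in LYZKL and 5667 UMIs in WTKL. It was 6330 UMIs in LYZKL and 4903 UMIs in WTKL in CD4 T cells. In Treg it was 5857.5 UMIs in LYZKL and 4503 UMIs in WTKL, and in B cells 3314.5 UMIs in LYZKL and 2990.5 UMIs in WTKL.

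**Figure D1:**
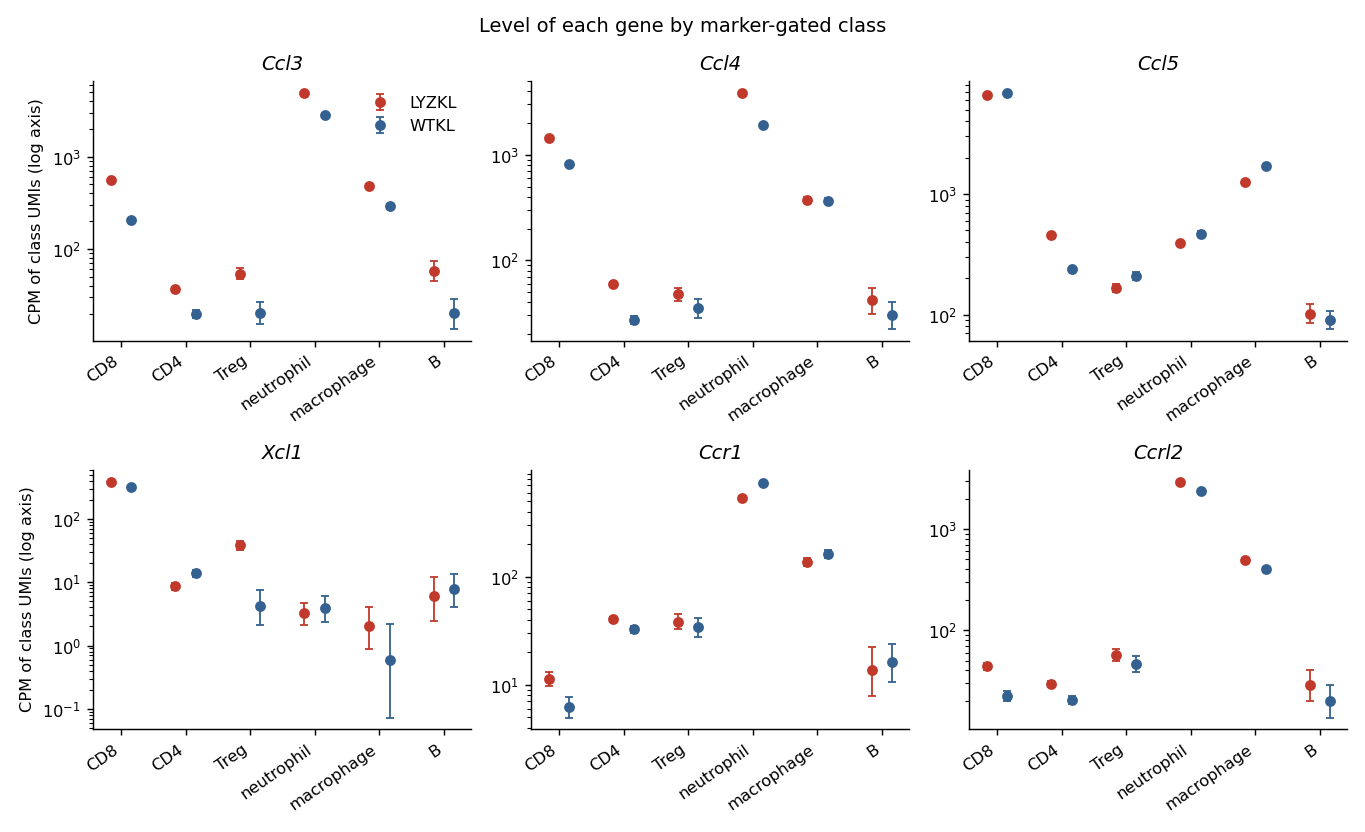
Level of 6 of the 7 genes in 6 marker-gated classes, as CPM of all UMIs of the class on log axes; points are 1 library each and bars are exact 95% Poisson intervals. LYZKL (red) stands left of WTKL (blue); Ccl3 in CD8 T cells is at 552 CPM in LYZKL and 205 CPM in WTKL, and Ccr1 in neutrophils is at 540 CPM in LYZKL and 737 CPM in WTKL.

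CD8 T cells differed in make-up between the libraries. A CD8 barcode was put in the state whose marker genes summed to the most UMIs in it. Barcodes with a tie for the most, or with none, are the remaining CD8 barcodes. The Itga1/Itgae state, named for integrins of tissue T cells, held 54.7% of CD8 T cells in LYZKL and 24.1% in WTKL. Naive-type barcodes, with markers such as Ccr7, Lef1 and Igfbp4, were 15.2% in LYZKL and 39.6% in WTKL, and Gzmk/Eomes barcodes were 12.1% in LYZKL and 22.2% in WTKL. These states were set without the 7 genes.

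Ccl3 was higher in LYZKL inside each CD8 state. In the Itga1/Itgae state it stood at 772 CPM in LYZKL and 403 CPM in WTKL (log2 0.94), and in the remaining CD8 barcodes at 487 CPM in LYZKL and 219 CPM in WTKL (log2 1.15). In the Gzmk/Eomes state it stood at 471 CPM in LYZKL and 317 CPM in WTKL (log2 0.57), short of 1.5-fold. In the naive-type state it stood at 97.8 CPM in LYZKL and 41.0 CPM in WTKL, and at 58.2 CPM in LYZKL and 34.2 CPM in WTKL without the highest barcode of each library, since 1 barcode held 40.6% of the LYZKL UMIs. With the 4 states weighted equally, the CD8 level was 457 CPM in LYZKL and 245 CPM in WTKL, a log2 ratio of 0.90 beside 1.43 with the cells as they were.

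Neutrophils were split by Hcar2, which codes for a receptor of ketone bodies and niacin, and by the granule genes Ngp, Camp, Ltf and Mmp8. Ccl3 was higher in LYZKL in each of these states. In Hcar2 neutrophils, 50.4% of the class in LYZKL and 47.3% in WTKL, it stood at 6787 CPM in LYZKL and 4274 CPM in WTKL (log2 0.67). In granule-type neutrophils it stood at 3365 CPM in LYZKL and 1825 CPM in WTKL (log2 0.88), and in the others at 2627 CPM in LYZKL and 1500 CPM in WTKL (log2 0.81).

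Ccl4, the neighbour of Ccl3 on chromosome 11, was higher in LYZKL in neutrophils, CD8 and CD4 T cells. Neutrophils held 3827 CPM in LYZKL and 1897 CPM in WTKL, a log2 ratio of 1.01 (0.98 to 1.04). CD8 T cells held 1440 CPM (1421 to 1460) in LYZKL and 816 CPM (801 to 832) in WTKL, a log2 ratio of 0.82 (0.79 to 0.85). CD4 T cells held 59.4 CPM in LYZKL and 27.2 CPM in WTKL (log2 1.13, 0.99 to 1.27). Unlike Ccl3, the macrophage levels lay together, at 375 CPM in LYZKL and 366 CPM in WTKL, with a log2 ratio of 0.03 (-0.08 to 0.14).

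The remaining Ccl4 levels were low. Treg held 47.4 CPM in LYZKL and 35.2 CPM in WTKL (log2 0.43, 0.07 to 0.81), and B cells held 41.8 CPM in LYZKL and 30.5 CPM in WTKL, with an interval of the ratio that includes 0 (log2 0.45, -0.15 to 1.06). The Treg and B levels overlapped in both libraries. The thinned share of barcodes with a Ccl4 UMI was 40.0% in LYZKL and 26.8% in WTKL in CD8 T cells and 50.7% in LYZKL and 34.0% in WTKL in neutrophils. In CD4 T cells it was 4.21% in LYZKL and 2.22% in WTKL, beside 3.13% in LYZKL and 2.28% in WTKL in B cells, with overlapping intervals. The CD4 level, however, was above that of B cells in LYZKL, at 59.4 CPM (56.6 to 62.4) beside 41.8 CPM (30.9 to 55.2), while the 2 levels overlapped in WTKL. In LYZKL 44 CD4 barcodes with 5 or more Ccl4 UMIs held 51.7% of the CD4 Ccl4 UMIs, and in WTKL 10 such barcodes held 29.8%.

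The CD8 difference of Ccl4 was not shared by every CD8 state. Inside the Itga1/Itgae state Ccl4 stood at 1937 CPM in LYZKL and 1338 CPM in WTKL (log2 0.53). Inside the Gzmk/Eomes state it was lower in LYZKL, at 1333 CPM against 1580 CPM in WTKL (log2 -0.25), and at 1078 CPM in LYZKL against 1532 CPM in WTKL without the highest barcode of each library. In the naive-type state it stood at 253 CPM in LYZKL and 116 CPM in WTKL (log2 1.13). With the states weighted equally the log2 ratio was 0.32, on 1245 CPM in LYZKL and 1000 CPM in WTKL.

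Ccl5 was at a like level in CD8 T cells of both libraries and apart in CD4 T cells. CD8 T cells held 6610 CPM in LYZKL and 6854 CPM in WTKL, a log2 ratio of -0.05 (-0.07 to -0.04). CD4 T cells held 461 CPM (453 to 469) in LYZKL and 240.5 CPM (234 to 247) in WTKL, a 1.92-fold difference with a log2 ratio of 0.94 (0.89 to 0.99). Few CD4 barcodes carried most of this Ccl5. Those with 20 or more Ccl5 UMIs were 149 in LYZKL, 4.10% of the class, holding 73.3% of its Ccl5 UMIs, and 46 in WTKL, 1.18% of the class, holding 53.8%. No Ccl5 UMI was found in 61.2% of CD4 barcodes in LYZKL and 64.0% in WTKL. The CD4 ratio moved little without the highest barcode of each library (447 CPM in LYZKL and 228 CPM in WTKL).

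Treg lay the other way from CD4 T cells, with 167 CPM of Ccl5 in LYZKL and 210 CPM in WTKL (log2 -0.33, -0.49 to -0.16). Macrophages held 1264 CPM in LYZKL and 1707 CPM in WTKL (log2 -0.43, -0.49 to -0.38), and neutrophils 390 CPM in LYZKL and 471 CPM in WTKL (log2 -0.27). B cells, a class that should lack Ccl5, held 102 CPM in LYZKL and 90.8 CPM in WTKL, the lowest level of the 6 classes.

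The share of thinned barcodes with a Ccl5 UMI shows how this RNA was spread. It was 76.0% in LYZKL and 63.9% in WTKL in CD8 T cells, 14.1% in LYZKL and 11.4% in WTKL in CD4 T cells, and 6.58% in LYZKL and 8.90% in WTKL in B cells. The CD8 shares and the CD8 levels of Ccl5 lay in opposite directions, and no order is read from them. By state, Ccl5 stood at 8093 CPM in LYZKL and 7023 CPM in WTKL in Itga1/Itgae cells (log2 0.20) and at 1496 CPM in LYZKL and 2198 CPM in WTKL in naive-type cells (log2 -0.56). In the Gzmk/Eomes state it was called lower in LYZKL, at 7854 CPM against 14821 CPM in WTKL (log2 -0.92, -0.94 to -0.89). That is the one called difference of Ccl5 among the 4 CD8 states, where 8.05% of genes were lower by 1.5-fold or more.

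T cell RNA outside T cells bears on the Ccl5 of the other classes. Barcodes with at least 6 UMIs of the 8 T cell genes were kept out of these classes. This caps the percents of the list, but places no cap on Ccl5. The 8 summed T cell genes stood in neutrophils at 2.16% of their CD8 level in LYZKL and 3.15% in WTKL, while Ccl5 stood at 5.89% in LYZKL and 6.87% in WTKL. In macrophages the list stood at 1.46% in LYZKL and 1.60% in WTKL, and Ccl5 at 19.1% in LYZKL and 24.9% in WTKL. In B cells the list stood at 2.56% in LYZKL and 3.37% in WTKL, above Ccl5 at 1.55% in LYZKL and 1.32% in WTKL. The list also holds genes of CD4 T cells. Cd8a and Cd8b1 alone stood in B cells at 0.538% (0.246 to 1.02) in LYZKL and 1.10% (0.679 to 1.68) in WTKL of their CD8 level, in neutrophils at 0.813% in LYZKL and 1.12% in WTKL, and in macrophages at 0.900% in LYZKL and 0.628% in WTKL. Neutrophil and macrophage Ccl5 was thus above the list and the CD8 genes. B cell Ccl5 was below the list in both libraries, above Cd8a and Cd8b1 in LYZKL and level with them within counting error in WTKL. It was level within counting error with Nkg7, another gene high in CD8 T cells. Nkg7 stood in B cells at 1.68% (1.15 to 2.38) of its CD8 level in LYZKL and 1.45% (0.969 to 2.08) in WTKL. In neutrophils Nkg7 stood at 0.898% in LYZKL and 1.16% in WTKL, and in macrophages at 0.888% in LYZKL and 0.623% in WTKL. Few neutrophil barcodes carried most of this Ccl5. Those with 20 or more Ccl5 UMIs were 2.06% of neutrophils in LYZKL and 1.47% in WTKL. They held 65.9% of neutrophil Ccl5 UMIs in LYZKL and 65.6% in WTKL. In macrophages such barcodes were 19.2% in LYZKL and 16.4% in WTKL and held 84.1% in LYZKL and 91.3% in WTKL.

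**Figure D2:**
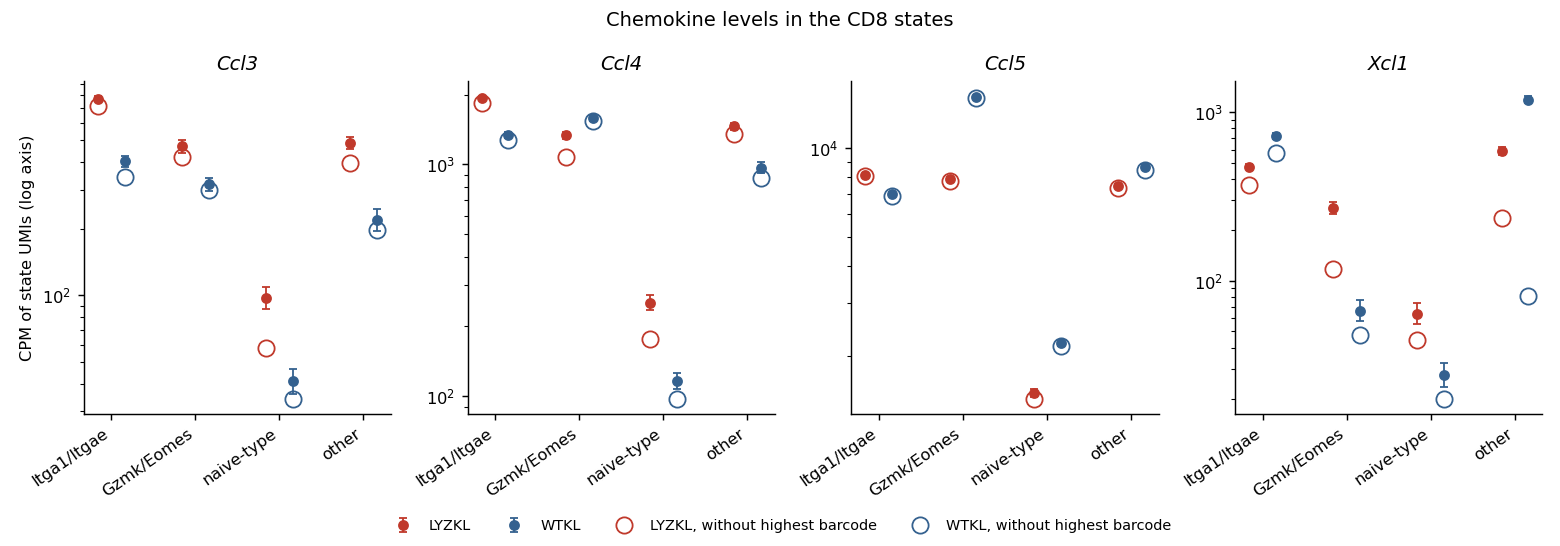
Level of the 4 chemokines in 4 CD8 states, as CPM of all UMIs of the state on log axes, with exact 95% Poisson intervals; open circles leave out the barcode with the most UMIs of the gene in each library. LYZKL (red) stands left of WTKL (blue); in the other state the Xcl1 level of WTKL drops to 80.9 CPM without 1 barcode, below the LYZKL level of 236 CPM.

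Xcl1 was a CD8 gene in both libraries, and a few barcodes carried much of it. CD8 T cells held 381 CPM (371 to 391) in LYZKL and 316 CPM (307 to 326) in WTKL, a log2 ratio of 0.27 (0.21 to 0.33). A single barcode held 831 UMIs, or 14.7%, of the CD8 total in LYZKL, and a single barcode held 1534 UMIs, or 37.4%, in WTKL. Without these, the levels were 325 CPM in LYZKL and 198 CPM in WTKL, a 1.64-fold difference (log2 0.71, 0.64 to 0.78), so that these barcodes decide whether the difference passes 1.5-fold.

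The thinned share, which weighs every barcode alike, was 6.27% (5.39 to 7.25) in LYZKL and 4.81% (3.92 to 5.84) in WTKL in CD8 T cells, beside 0.313% in LYZKL and 0.414% in WTKL in B cells. The CD8 shares stood above those of B cells, and their intervals overlapped between the libraries. Neutrophil levels of 3.21 CPM in LYZKL and 3.91 CPM in WTKL, macrophage levels of 2.06 CPM in LYZKL and 0.600 CPM in WTKL and B cell levels of 5.97 CPM in LYZKL and 7.78 CPM in WTKL rested on 26 UMIs or fewer. The summed T cell genes in neutrophils, at 2.16% in LYZKL and 3.15% in WTKL of the CD8 level, were above Xcl1 there, at 0.841% (0.549 to 1.23) in LYZKL and 1.24% (0.754 to 1.91) in WTKL. Xcl1 was level within counting error with Cd8a and Cd8b1, at 0.813% in LYZKL and 1.12% in WTKL.

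Xcl1 in CD4 T cells stood at 8.65 CPM in LYZKL and 13.8 CPM in WTKL (log2 -0.67, -0.92 to -0.42), and the log2 ratio was -0.38 without the highest barcode of each library. The thinned CD4 shares, 0.633% in LYZKL and 0.645% in WTKL, had intervals that overlapped those of B cells. In Treg it stood at 38.3 CPM in LYZKL and 4.16 CPM in WTKL, but 1 LYZKL barcode held 136 of the 152 UMIs. Without the highest barcodes the Treg levels were 4.05 CPM in LYZKL and 3.78 CPM in WTKL, with a log2 ratio of 0.10 (-1.13 to 1.40). The Xcl1 level of LYZKL Treg is therefore that of 1 barcode.

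The CD8 states gave opposite Xcl1 ratios. In the Itga1/Itgae state it was lower in LYZKL, at 476 CPM against 719 CPM in WTKL (log2 -0.60), and stayed lower without the highest barcodes, at 367 CPM in LYZKL against 570 CPM in WTKL. In the Gzmk/Eomes state it was higher in LYZKL, at 271 CPM against 66.6 CPM in WTKL, and at 117 CPM in LYZKL against 47.6 CPM in WTKL without the highest barcodes. In the naive-type state it stood at 63.7 CPM in LYZKL and 27.7 CPM in WTKL, and at 44.22 CPM in LYZKL and 19.999 CPM in WTKL without them. In the remaining CD8 barcodes it stood at 592 CPM in LYZKL and 1185 CPM in WTKL, and the order turned without the highest barcodes, to 236 CPM in LYZKL and 80.9 CPM in WTKL. With the states weighted equally the log2 ratio was -0.51.

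**Figure D3:**
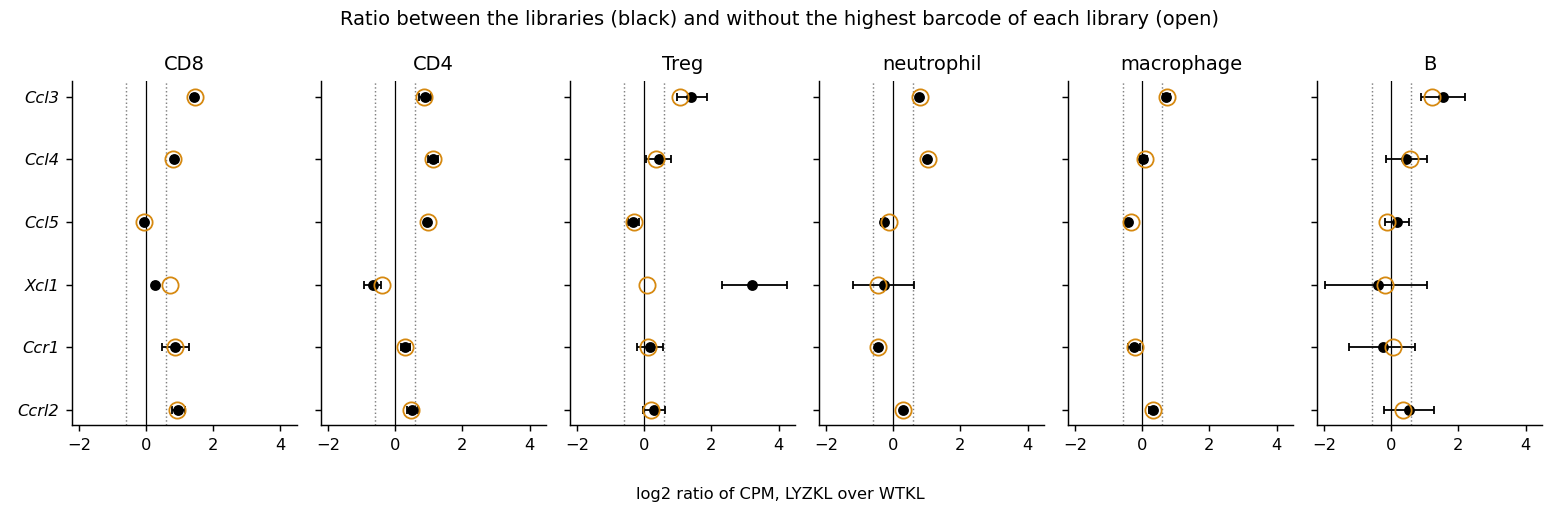
The log2 ratio of CPM, LYZKL over WTKL, of 6 genes in 6 classes: black points are all barcodes with exact conditional 95% intervals, and open circles leave out the highest barcode of each library. Dotted lines mark 1.5-fold; Xcl1 in Treg moves to 0.10 from 3.20 and Xcl1 in macrophages is not drawn, since its WTKL level rests on 2 UMIs.

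Ccr1, a receptor of Ccl3 and Ccl5, was lower in LYZKL neutrophils. It stood at 540 CPM (524 to 557) in LYZKL and 737 CPM (713 to 760) in WTKL, a log2 ratio of -0.45 (-0.51 to -0.38) that falls short of 1.5-fold. The thinned share of neutrophils with a Ccr1 UMI was 37.3% in LYZKL and 49.4% in WTKL, and these intervals do not overlap. The ligand Ccl3 and its receptor thus lay in opposite directions in the same class.

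The Ccr1 ratio was not the same in every neutrophil state, though the difference between states was not tested. In Hcar2 neutrophils Ccr1 stood at 508 CPM in LYZKL and 815 CPM in WTKL (log2 -0.68), and in the remaining neutrophils at 430 CPM in LYZKL and 778 CPM in WTKL (log2 -0.85). In granule-type neutrophils it stood at 600 CPM in LYZKL and 640 CPM in WTKL (log2 -0.09, -0.19 to 0.01), an interval that includes 0.

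Macrophages held 137 CPM of Ccr1 in LYZKL and 163 CPM in WTKL (log2 -0.25), again lower in LYZKL. CD4 T cells held 40.3 CPM in LYZKL and 32.6 CPM in WTKL (log2 0.30, 0.17 to 0.44), and Treg 38.3 CPM in LYZKL and 34.0 CPM in WTKL with an interval of the ratio that includes 0. CD4 T cells and Treg were at the same Ccr1 level within counting error in each library. CD8 T cells held 11.4 CPM in LYZKL and 6.24 CPM in WTKL (log2 0.86, 0.47 to 1.26), on 168 UMIs in LYZKL and 81 UMIs in WTKL, and B cells 13.6 CPM in LYZKL and 16.2 CPM in WTKL on 16 UMIs in LYZKL and 25 UMIs in WTKL. The thinned CD8 shares, 0.959% in LYZKL and 0.595% in WTKL, had intervals that overlapped those of B cells. These shares do not set CD8 Ccr1 apart from B cells.

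Ccrl2 was a neutrophil gene in both libraries, at 2906 CPM in LYZKL and 2364 CPM in WTKL (log2 0.30, 0.27 to 0.33). Hcar2 neutrophils held 4140 CPM in LYZKL and 3271 CPM in WTKL, and granule-type neutrophils 1807 CPM in LYZKL and 1465 CPM in WTKL. The difference was in both of these states and not in the remaining neutrophils, at 2119 CPM in LYZKL and 2242 CPM in WTKL (log2 -0.08). The thinned share in neutrophils was 69.7% in LYZKL and 60.6% in WTKL.

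Macrophages held 496 CPM of Ccrl2 in LYZKL and 398 CPM in WTKL (log2 0.32, 0.21 to 0.42). In CD8 T cells it was called higher in LYZKL, at 43.8 CPM against 22.5 CPM in WTKL (log2 0.96, 0.76 to 1.16), whereas the thinned shares, 2.88% in LYZKL and 2.48% in WTKL, had overlapping intervals, also with the B cell shares of 2.82% in LYZKL and 1.45% in WTKL. CD4 T cells held 29.2 CPM in LYZKL and 20.5 CPM in WTKL (log2 0.51), and B cells 29.0 CPM in LYZKL and 20.1 CPM in WTKL. CD4 T cells and B cells did not differ beyond counting error in either library. Treg held 56.7 CPM in LYZKL and 46.5 CPM in WTKL, with a log2 ratio of 0.29 (-0.04 to 0.62).

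Xcr1, the receptor of Xcl1, was close to absent from both libraries. Its total was 10 UMIs in LYZKL and 13 UMIs in WTKL, of which 7 in each were in CD4 T cells. No UMI was found in CD8 T cells, neutrophils, macrophages or B cells, which allows a share of CD8 barcodes with a UMI of up to 0.111% in LYZKL and 0.149% in WTKL. Barcodes gated as dendritic cells, the known source of Xcr1, numbered 1 in LYZKL and 11 in WTKL and held none. The sort kept CD4 and CD8 positive cells, so that the libraries are not a measure of Xcr1 in the lung.

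Set beside all genes, the members called in CD8 T cells were 4 higher in LYZKL (Ccl3, Ccl4, Ccr1 and Ccrl2) and 0 lower of 6 with at least 5 CPM, where 7.95% of all genes were called higher and 3.34% lower. Of these 4, Ccr1 had CD8 shares that overlapped those of B cells, and was at log2 -0.20 with mixed barcodes kept. Ccl4 was at log2 0.32, short of 1.5-fold, with the CD8 states weighted equally, since the shares of these states differed between the libraries. Ccrl2 was at log2 0.22 without barcodes holding a neutrophil gene other than S100a8 and S100a9. In CD4 T cells 3 were higher (Ccl3, Ccl4 and Ccl5) and 1 lower (Xcl1) of 6, with 2.93% of genes higher and 2.96% lower. In neutrophils 2 of 5 were higher (Ccl3 and Ccl4) and 0 lower, with 7.35% of genes higher and 6.52% lower. In Treg 2 of 6 were higher (Ccl3 and Xcl1) and 0 lower, with 5.36% of genes higher and 6.47% lower. Neither Treg call held under every alternative. Treg Ccl3 was at log2 0.22 without barcodes holding a neutrophil gene other than S100a8 and S100a9. Treg Xcl1 was at log2 0.10 without the highest barcode of each library. In macrophages 1 of 5 was higher (Ccl3), with 6.08% of genes higher and 5.4% lower, and in B cells 1 of 6 (Ccl3), with 13.3% of genes higher and 7.73% lower. The B cell Ccl3 ratio changed sign, to log2 -1.27, with doubled gate thresholds. Inside the Itga1/Itgae state 2 were higher (Ccl3 and Ccrl2) and 1 lower (Xcl1), with 7.64% of genes higher and 5.03% lower. Inside the Gzmk/Eomes state 3 were higher (Xcl1, Ccr1 and Ccrl2) and 1 lower (Ccl5), with 13.5% of genes higher and 8.05% lower. Inside the naive-type state 4 were higher (Ccl3, Ccl4, Xcl1 and Ccrl2), with 7.42%. Ccr1 in the Gzmk/Eomes state rested on 21 UMIs in LYZKL and 9 UMIs in WTKL. Without the highest barcode of each library Ccrl2 fell to log2 0.42 (-0.17 to 1.01) in the Gzmk/Eomes state. In the naive-type state it fell to log2 0.11 (-0.42 to 0.63). The median log2 ratio of the members was 0.84 in CD8 T cells beside 0.11 over all genes, 0.70 beside -0.01 in CD4 T cells, and 0.30 beside 0.05 in neutrophils. It was 0.36 beside -0.02 in Treg, 0.03 beside 0.01 in macrophages and 0.31 beside 0.04 in B cells.

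Neutrophil RNA was measured in the lymphocyte classes with 12 neutrophil genes, among them the calprotectin subunits S100a8 and S100a9 and the receptors Csf3r and Cxcr2. Their summed level in CD8 T cells was 0.304% of that in neutrophils in LYZKL and 0.271% in WTKL, and in CD4 T cells it was 0.237% in LYZKL and 0.285% in WTKL. In Treg it was 0.238% in LYZKL and 0.297% in WTKL, and in B cells 0.326% in LYZKL and 0.402% in WTKL. None of the 12 was at 0 in B cells. The T gate keeps barcodes with fewer than 10 UMIs of this list, which caps these percents but places no cap on the 7 genes.

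CD8 T cells held far more Ccl3 and Ccl4 than these percents. Ccl3 in CD8 T cells stood at 11.4% of the neutrophil level in LYZKL and 7.23% in WTKL, and Ccl4 at 37.6% in LYZKL and 43.0% in WTKL. The highest single neutrophil gene stood at 0.840% in LYZKL and 0.682% in WTKL. At the percent of the summed list, the neutrophil Ccl3 would give 14.7 CPM in LYZKL and 7.68 CPM in WTKL in CD8 T cells, where 552 CPM in LYZKL and 205 CPM in WTKL were measured.

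CD4 T cells, Treg and B cells were nearer to the percents of the neutrophil genes. Against the summed list, Ccl3 stood at 3.19 times the list's percent in LYZKL and 2.46 times in WTKL in CD4 T cells, at 4.70 times in LYZKL and 2.43 times in WTKL in Treg, and at 3.66 times in LYZKL and 1.77 times in WTKL in B cells. Ccl3 in CD4 T cells stood at 0.756% of the neutrophil level in LYZKL and 0.700% in WTKL. Single neutrophil genes ranged over 0.205 to 1.10% in LYZKL and 0.203 to 0.661% in WTKL there. The WTKL value was thus just past the highest gene. In LYZKL only the highest gene was above Ccl3, and the next stood at 0.471%. In Treg Ccl3 stood at 1.12% in LYZKL and 0.722% in WTKL. Single genes ranged over 0.0815 to 1.90% in LYZKL and 0.210 to 1.89% in WTKL there. Only the highest gene, on 21 UMIs in LYZKL and 28 UMIs in WTKL, was above Treg Ccl3. The next stood at 0.523% in LYZKL and 0.668% in WTKL. In B cells Ccl3 stood at 1.19% in LYZKL, just past the highest single gene at 1.08%, and at 0.711% in WTKL, inside the range.

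The other members with high neutrophil levels gave values between these. Ccl4 in CD4 T cells stood at 1.55% of the neutrophil level in LYZKL and 1.43% in WTKL, above the highest single neutrophil gene of that class. Ccrl2 in CD8 T cells stood at 1.51% of the neutrophil level in LYZKL and 0.952% in WTKL, and in Treg at 1.95% in LYZKL and 1.97% in WTKL. Ccr1 stood at 7.45% in LYZKL and 4.43% in WTKL in CD4 T cells and at 2.10% in LYZKL and 0.847% in WTKL in CD8 T cells. Ccr1 in CD4 T cells and Treg was thus above each of the 12 neutrophil genes in both libraries. Ccr1 and Ccrl2 in CD8 T cells were also above each of them. The WTKL interval of CD8 Ccr1 (0.673 to 1.05) held the highest gene, at 0.682%. Ccrl2 in Treg was level with the highest gene within counting error. B cells held Ccr1 at 2.52% in LYZKL and 2.20% in WTKL.

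**Figure D4:**
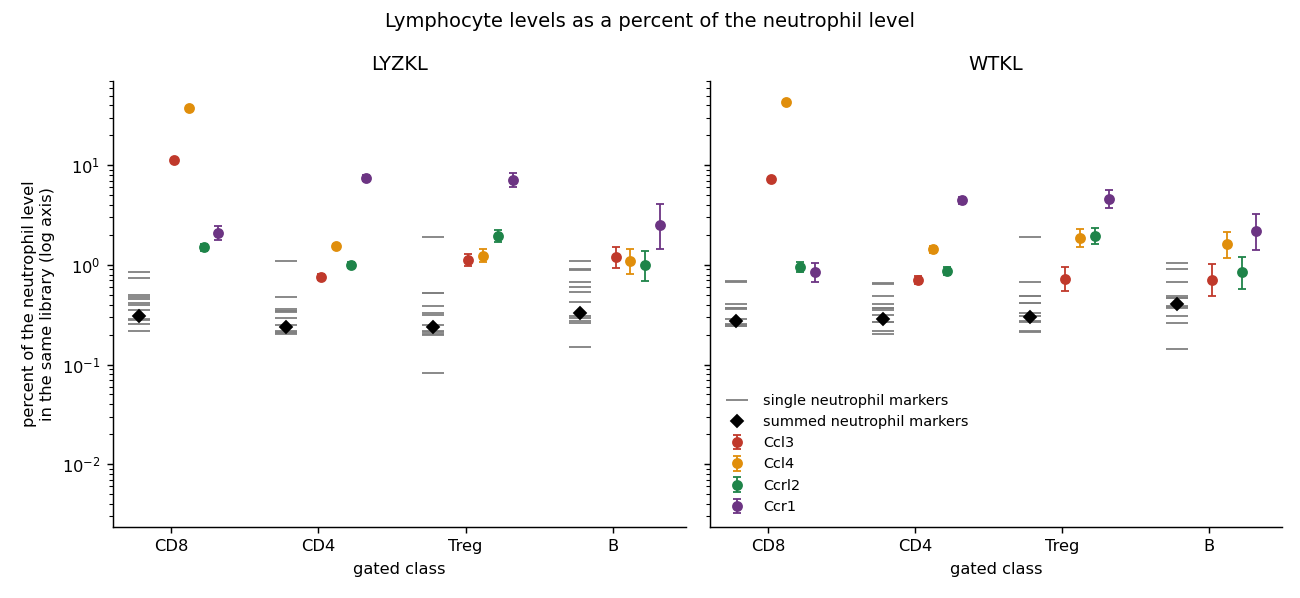
Level of Ccl3, Ccl4, Ccrl2 and Ccr1 in 4 lymphocyte classes as a percent of the level in neutrophils of the same library, on a log axis; LYZKL is the left panel and WTKL the right. Grey dashes are the 12 single neutrophil genes, diamonds their sum, and bars exact 95% intervals; Ccl3 in CD8 T cells is at 11.4% in LYZKL and 7.23% in WTKL, above all dashes, and in CD4 T cells it is at 0.756% in LYZKL and 0.700% in WTKL.

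RNA from 1 source would keep its genes in 1 ratio, so the UMIs of Ccl4 per UMI of Ccl3 were compared between classes. The neutrophil genes kept such a ratio only loosely. S100a8 UMIs per Ccl3 UMI were 1.75 in LYZKL and 6.29 in WTKL in B cells, beside 7.05 in LYZKL and 12.2 in WTKL in neutrophils, though the gates limit S100a8 in B cells. A class can also hold RNA of several sources, so an intermediate ratio does not tell them apart. In neutrophils this ratio was 0.789 (0.777 to 0.800) in LYZKL and 0.670 (0.653 to 0.688) in WTKL. In CD8 T cells it was 2.61 (2.54 to 2.68) in LYZKL and 3.99 (3.82 to 4.16) in WTKL, far from the neutrophil ratio. The CD4 ratio was 1.62 in LYZKL and 1.37 in WTKL, between the neutrophil and the CD8 ratio. In Treg it was 0.874 (0.715 to 1.07) in LYZKL, an interval that holds the neutrophil ratio, and 1.72 (1.22 to 2.46) in WTKL, which does not hold it. In B cells it was 0.721 (0.489 to 1.06) in LYZKL and 1.52 (0.943 to 2.47) in WTKL. As in Treg, the LYZKL interval holds the neutrophil ratio and the WTKL interval does not.

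Barcodes with 5 or more Ccl3 UMIs were 344 of the CD8 T cells in LYZKL and 122 in WTKL, and they held 82.4% in LYZKL and 74.8% in WTKL of the CD8 Ccl3 UMIs. Ccl4 was found in 96.5% of them in LYZKL and 100% in WTKL, against 50.1% in LYZKL and 39.9% in WTKL of CD8 barcodes with no Ccl3 UMI. A neutrophil gene other than S100a8 and S100a9 was found in 29.1% of them in LYZKL and 30.3% in WTKL, against 25% in LYZKL and 29.4% in WTKL of CD8 barcodes with no Ccl3 UMI. S100a8 was found in 39.5% of them in LYZKL and 51.6% in WTKL, against 37.6% in LYZKL and 38.8% in WTKL. The highest Ccl3 barcodes differed more. Those with 20 or more Ccl3 UMIs were 65 in LYZKL and 28 in WTKL and held 51.5% in LYZKL and 42.7% in WTKL of the CD8 Ccl3 UMIs. A neutrophil gene other than S100a8 and S100a9 was found in 43.1% of these in LYZKL and 42.9% in WTKL, and S100a8 in 41.5% in LYZKL and 71.4% in WTKL. Depth differs between such barcodes, and its part in these shares was not tested.

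The Ccl3-rich CD4 and Treg barcodes were fewer and more often held a neutrophil gene other than S100a8 and S100a9. Such barcodes numbered 24 in CD4 T cells of LYZKL and 8 in WTKL, of which 66.7% in LYZKL and 62.5% in WTKL held another neutrophil gene, against 27.8% in LYZKL and 28.2% in WTKL of CD4 barcodes with no Ccl3 UMI. In Treg they numbered 6 in LYZKL and 0 in WTKL. All 6 held such another neutrophil gene, against 30.8% of LYZKL Treg barcodes with no Ccl3 UMI, and they held 55.8% of the Treg Ccl3 UMIs. S100a8 differed less. It was found in 45.8% of the Ccl3-rich CD4 barcodes in LYZKL and 50% in WTKL, against 39.1% in LYZKL and 39.1% in WTKL with no Ccl3 UMI. In LYZKL Treg it was found in 33.3%, against 36.6% with no Ccl3 UMI. The part of depth was not tested here either.

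T barcodes were also ordered by their UMIs of the neutrophil list. CD8 barcodes with 0 such UMIs held 451 CPM of Ccl3 in LYZKL and 135 CPM in WTKL, and those with 6 to 9 held 938 CPM in LYZKL and 363 CPM in WTKL. CD4 barcodes with 0 held 27.3 CPM in LYZKL and 20.9 CPM in WTKL, and those with 6 to 9 held 211 CPM in LYZKL and 192 CPM in WTKL. The CD4 bands between, of 1 to 2 and 3 to 5 such UMIs, held 33.1 and 35.3 CPM in LYZKL and 17.7 and 14.4 CPM in WTKL, so that the WTKL level was lower in both than at 0. Treg barcodes with 0 held 28.4 CPM in LYZKL and 27.0 CPM in WTKL. Treg barcodes with 1 to 2 and 3 to 5 held 39.5 and 60.5 CPM in LYZKL and 18.8 and 17.4 CPM in WTKL. Those with 6 to 9 were 8 barcodes at 529 CPM in LYZKL and 5 barcodes at 17.9 CPM, on 1 UMI, in WTKL. Treg Ccl3 was thus higher in each further band in LYZKL and not in WTKL. Ccl3 in CD8 T cells was higher in LYZKL in each of these bands. In the 0 band the CD4 level was also higher in LYZKL, on 177 UMIs against 111 UMIs in WTKL. The Treg levels there rested on 28 UMIs in LYZKL and 17 UMIs in WTKL. The intervals of the CD4 and Treg levels overlapped between the libraries, which does not show that the levels were equal.

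**Figure D5:**
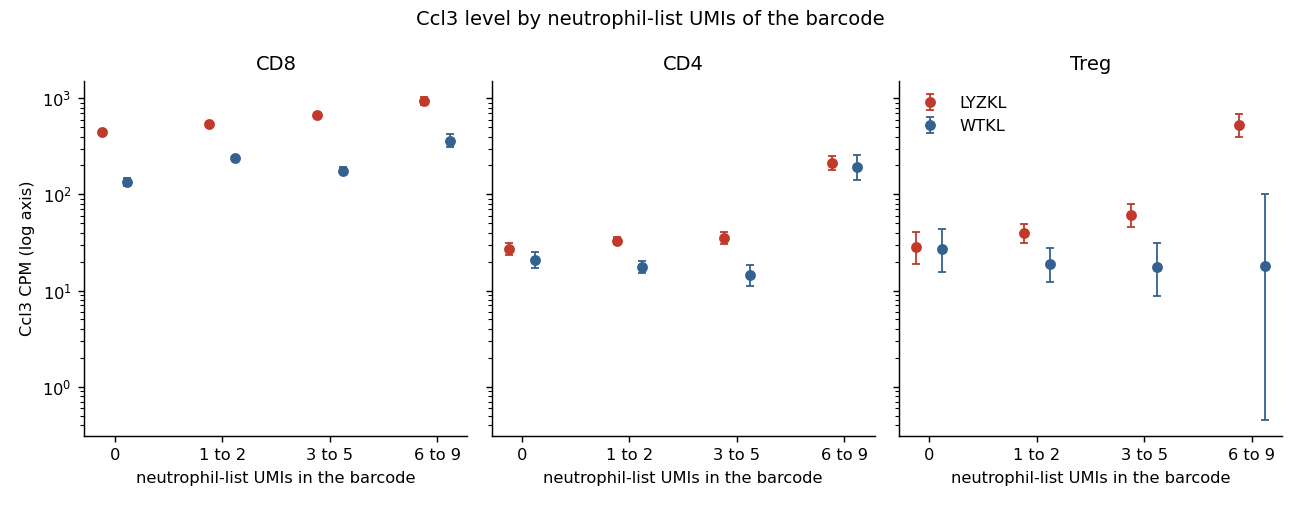
Ccl3 level in CD8, CD4 and Treg barcodes by the number of UMIs of 12 neutrophil genes in the barcode, as CPM on a log axis with exact 95% Poisson intervals; LYZKL (red) stands left of WTKL (blue). In the 0 band CD8 T cells are at 451 CPM in LYZKL and 135 CPM in WTKL and Treg at 28.4 CPM in LYZKL and 27.0 CPM in WTKL; the 6 to 9 band of Treg holds 8 barcodes in LYZKL and 5 in WTKL.

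Leaving out every T barcode with a neutrophil gene other than S100a8 and S100a9 separated the subsets further. Ccl3 in CD8 T cells then stood at 539 CPM in LYZKL and 215 CPM in WTKL (log2 1.33, beside 1.43 with all CD8 barcodes). In CD4 T cells it stood at 27.96 CPM in LYZKL and 19.04 CPM in WTKL (log2 0.55) and in Treg at 28.5 CPM in LYZKL and 24.5 CPM in WTKL (log2 0.22), both short of 1.5-fold. Ccrl2 in CD8 T cells stood at 21.8 CPM in LYZKL and 18.7 CPM in WTKL (log2 0.22), also short of 1.5-fold, while Ccl4 kept log2 ratios of 0.80 in CD8 and 1.15 in CD4 T cells. Ccl3 in CD4 T cells and Treg and Ccrl2 in CD8 T cells thus reached 1.5-fold only with the barcodes left out here. Ccl3 and Ccl4 in CD8 T cells and Ccl4 in CD4 T cells reached it without them. The barcodes kept can still hold S100a8 or S100a9.

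Barcodes that passed both the T and the neutrophil gate numbered 514 in LYZKL and 372 in WTKL and were kept out of the classes. They held 1923 CPM of Ccl3 in LYZKL and 1514 CPM in WTKL, and 13.8% in LYZKL and 17.8% in WTKL of all Ccl3 UMIs of the library. With such mixed barcodes kept in the T subsets, Ccl3 in CD8 T cells stood at 800 CPM in LYZKL and 385 CPM in WTKL (log2 1.06), and in CD4 T cells at 106 CPM in LYZKL and 81.0 CPM in WTKL (log2 0.38). How these barcodes arose was not tested.

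Neutrophils held the most Ccl3, Ccrl2 and Ccr1 UMIs of any class in both libraries, and CD8 T cells the most Ccl5 and Xcl1. Of 76972 Ccl3 UMIs in LYZKL and 30564 in WTKL, neutrophils held 51.1% in LYZKL and 47.4% in WTKL and CD8 T cells 10.6% in LYZKL and 8.69% in WTKL. Barcodes that passed both the T and the neutrophil gate held more of it than CD8 T cells, at 13.75% in LYZKL and 17.8% in WTKL. Of 83541 Ccl4 UMIs in LYZKL and 35260 in WTKL, neutrophils held 37.1% in LYZKL and 27.5% in WTKL and CD8 T cells 25.52% in LYZKL and 30.04% in WTKL. Ccl5 and Xcl1 were mostly CD8 RNA, with 51.2% of Ccl5 UMIs in LYZKL and 53.9% in WTKL, and 53.0% in LYZKL and 65.5% in WTKL of Xcl1 UMIs. Neutrophils held 55.2% of Ccrl2 UMIs in LYZKL and 53.1% in WTKL, and 47.2% in LYZKL and 47.8% in WTKL of Ccr1 UMIs. CD8 T cells held 1.81% in LYZKL and 1.03% in WTKL of Ccr1 UMIs, below CD4 T cells at 11.6% in LYZKL and 9.04% in WTKL.

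Of 15 further ligands and receptors, 4 had at least 5 CPM in CD8 T cells, with 1 higher and 0 lower in LYZKL, and 5 in neutrophils, with 2 higher and 0 lower. The shares called over all genes, given above for each class, were 7.95% higher and 3.34% lower in CD8 T cells and 7.35% higher and 6.52% lower in neutrophils. In neutrophils Cmklr1, the signalling receptor of chemerin, stood at 30.5 CPM in LYZKL and 18.9 CPM in WTKL. Of 3 in Treg 1 was higher, of 7 in macrophages 2 were higher, and of 2 in B cells 0 differed by 1.5-fold. The median log2 ratio of these genes was 0.37 in CD8 T cells and 0.22 in neutrophils, beside 0.11 over all genes in CD8 T cells and 0.05 in neutrophils.

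Of 17 genes of chemokine receptor signalling, 16 had at least 5 CPM in CD8 T cells, with 2 higher and 1 lower in LYZKL, beside 7.95% higher and 3.34% lower over all genes. Rgs2, a brake on G protein signalling, stood at 540 CPM in LYZKL and 253 CPM in WTKL in CD8 T cells (log2 1.09), and its relative Rgs16 at 99.6 CPM in LYZKL and 58.9 CPM in WTKL. In Treg Rgs16 was lower in LYZKL, at 78.7 CPM against 149 CPM in WTKL (log2 -0.92), 1 of 2 lower and 0 higher of 16. In neutrophils 0 of 16 were higher and 2 lower, among them Pik3cg, a kinase subunit downstream of chemokine receptors, at 25.8 CPM in LYZKL and 43.6 CPM in WTKL. Among CD4 T cells 1 of 16 was lower, in macrophages 0 of 16 differed by 1.5-fold, and in B cells 2 of 15 were lower, with 0 higher in each. The median log2 ratio was 0.12 in CD8 T cells and -0.11 in neutrophils.

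Of 16 transcription factors linked to these genes, 16 had at least 5 CPM in CD8 T cells, with 3 higher and 0 lower in LYZKL, beside 7.95% higher and 3.34% lower over all genes. Fos, an AP-1 subunit, stood at 717 CPM in LYZKL and 468 CPM in WTKL, and Tbx21, the T-bet factor of effector T cells, at 148 CPM in LYZKL and 91.8 CPM in WTKL. Batf3, singled out after its values were seen, was higher by at least 1.5-fold in LYZKL in CD8, CD4 and Treg cells, at 21.8 CPM against 7.93 CPM in WTKL in CD8 T cells. In CD4 T cells 2 of 16 and in Treg 1 of 15 were higher and 0 lower, in neutrophils 0 of 11 were higher and 1 lower, and in macrophages 1 of 13 was higher and 1 lower. The median log2 ratio was 0.10 in CD8 T cells and -0.01 in neutrophils. In B cells 2 of 14 were higher and 0 lower, among them Id2 at 153 CPM in LYZKL and 90.2 CPM in WTKL.

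The genes whose levels were most like those of each member are given as a description over 14 points, 7 classes in 2 libraries, which share libraries and gates. Pearson's r of log2(CPM + 1) was computed for 6692 genes. For Ccl3 the nearest were Selenon (0.960), Soat2 (0.946) and Ccl4 (0.945), then Oas3 and Hlx. For Ccl4 they were Ifitm1 (0.946), Ccl3, Soat2, Atp8b4 and Ifit3, and for Ccl5 the integrin gene Itga1 (0.943), Jaml, Fam241a, Nptn and Cdh1. For Xcl1 they were Nkg7 (0.949), the perforin gene Prf1, Klrd1, Crtam and Tbx21. For Ccr1 they were C9orf72 (0.979), Arpc3, Trib1, Siglece and Slc15a3, and for Ccrl2 Ninj1 (0.990), the neutrophil attractant Cxcl2 (0.989), Mir22hg, Klhdc4 and Cdc42ep2.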

How the data were processed

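The authors deposited 1 matrix per group, holding raw counts of UMIs as whole numbers, with 93584629 UMIs in LYZKL and 77181312 in WTKL. They came from 10x 3' v3 libraries, per the labels' protocols, and from Cell Ranger 6.1.2 with mm10, per the submitters' processing notes. Gene and barcode names came as separate files. No barcode held fewer than 501 UMIs in LYZKL or 500 in WTKL, so a minimum had been applied.

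Barcodes with under 500 detected genes (121 in LYZKL and 170 in WTKL) or over 10% mitochondrially coded UMIs (35 in LYZKL and 31 in WTKL) were left out. The remaining barcodes were gated on summed UMIs of marker lists: T at least 6, neutrophil and macrophage 10, B 8, plasma 20, natural killer 4 and dendritic 6. Neutrophils also needed 4 times the macrophage sum. These thresholds were set after the marker sums were seen, without the 7 genes. Barcodes passing gates of more than 1 lineage were set aside in place of a doublet caller, and classes under 50 barcodes in either library were not compared. Treg held Foxp3 and no Cd8a or Cd8b1 UMI, CD8 held Cd8a or Cd8b1 and no Cd4 or Foxp3 UMI, and CD4 held Cd4 and none of the others.

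UMIs were summed per class and library and scaled to CPM, with exact Poisson, Clopper-Pearson and conditional binomial intervals at 95% (Python 3.11.15, scipy 1.17.1). Shares came from barcodes thinned to 1000 UMIs, which left out at most 8 shallower barcodes of a compared class. No test was made between single libraries. Upstream bases came from RefSeq. The intervals and calls were tested on simulated counts with planted differences. These were independent Poisson counts, as the intervals assume, without the clumping of UMIs in single barcodes seen here. They do not check the intervals for such clumping. Alternatives were other cell filters, gates, totals and weights, edgeR 4.0.16 TMM scaling (R 4.3.3), and, chosen after seeing the data, leaving out shared barcodes or the highest barcode. The members and lists were chosen with earlier results of these data known. Named besides the 7 members were list genes that reached 30 CPM in either library and the 5 genes most alike in pattern. Some alleles, markers and list genes are not reported here.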

Additional observations from a re-analysis of the deposited data

Results flagged for a closer look

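Xcl1 had opposite ratios in 2 T cell subsets, with a log2 ratio of 3.20 in Treg and -0.67 in CD4 T cells. The difference was not tested, and the Treg value rests on 1 LYZKL barcode with 136 UMIs.

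Xcl1 also had opposite ratios among the CD8 states, and this difference was not tested either. The log2 ratio was 2.02 in the Gzmk/Eomes state and 1.20 in the naive-type state. It was -0.60 in the Itga1/Itgae state and -1.001 in the remaining CD8 barcodes, where 1 barcode held 60.5% of the Xcl1 UMIs in LYZKL and 1 barcode 93.3% in WTKL.

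Barcodes outside the compared classes also held members, most of them at higher and some at lower levels in LYZKL than in WTKL. Those that passed no gate held 2195 CPM of Ccl3 in LYZKL and 942 CPM in WTKL. They held 1387 CPM of Ccl4 in LYZKL and 703 CPM in WTKL, and 1532 CPM of Ccrl2 in LYZKL against 739 CPM in WTKL. Those that passed the T and neutrophil gates held 1923 CPM of Ccl3 in LYZKL and 1514 CPM in WTKL. Their Xcl1 level was 239 CPM in LYZKL and 80.0 CPM in WTKL. Those that passed the T and B gates held 126 CPM of Xcl1 in LYZKL, of which 1 barcode gave 49.0%, and 22.9 CPM in WTKL. Lower in LYZKL were Xcl1 in barcodes that passed no gate, at 51.6 CPM in LYZKL and 80.0 CPM in WTKL, Ccr1 in those that passed the T and neutrophil gates, at 180 CPM in LYZKL and 290 CPM in WTKL, and Ccl5 in those that passed the T and macrophage gates, at 2799 CPM in LYZKL and 3693 CPM in WTKL.

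Xcl1 was also seen in classes too small to compare. The 14 natural killer barcodes of LYZKL held 2475 CPM, of which 1 barcode gave 57.0%, and the 7 of WTKL held 654 CPM. The 11 gamma-delta barcodes of LYZKL held 13198 CPM, where 1 barcode held all 822 Xcl1 UMIs, and the 6 of WTKL held 37.1 CPM on 1 UMI.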

How the results depend on the processing

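Of 35 log2 ratios of the members, each recomputed under up to 15 alternatives (467 values in all), 21 kept their direction and 23 kept their side of 1.5-fold under every alternative run. The alternatives of 200 genes, 5% or 20% mitochondrially coded UMIs and leaving out shared barcodes left all 35 inside their intervals. No paired analysis was possible because each group has 1 library.

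The ratios of at least 1.5-fold that changed sign were these. Ccl3 in B cells went to -1.27 with doubled gates, and Ccr1 in CD8 T cells to -0.20 with mixed barcodes kept. Xcl1 went to 0.30 in CD4 T cells and -0.72 in Treg without barcodes holding a neutrophil gene other than S100a8 and S100a9. Ratios under 1.5-fold also changed sign, among them Xcl1 in CD8 T cells, down to -0.51, Ccr1 in Treg to -0.43, Ccl5 in B cells to -0.86 and Ccl4 in Treg to -0.35. Ccl3 in CD8 T cells moved to 1.33 without such barcodes, 1.34 with TMM, 1.06 with mixed barcodes kept, 1.51 and 1.32 with doubled and halved gates, 1.22 as a mean per cell and 0.90 with equal states. Ccl4 there moved to 0.73 with TMM, 0.92 and 0.77 with doubled and halved gates, 0.72 per cell and 0.32 with equal states. Ccl5 there moved to -0.088 without such barcodes, -0.14 with TMM, -0.068 with doubled gates, -0.026 per cell, -0.39 with equal states and -0.081 without ribosomal and mitochondrial genes. Xcl1 there moved to 0.77 without such barcodes, 0.18 with TMM, 0.62 with mixed barcodes, 0.41 with doubled and 0.0047 with halved gates, 0.20 per cell, -0.51 with equal states and 0.71 without the highest barcode.

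In neutrophils Ccl3 moved to 0.82 with a minimum of 1000 genes and 0.75 with equal states, Ccl4 to 1.09 per cell and 0.96 with equal states, and Ccr1 to -0.53 per cell and -0.54 with equal states. Ccrl2 there moved to 0.26 per cell, 0.33 with a minimum of 1000 genes and 0.21 with equal states. The causes were not tested. At 20 CPM, 4.59% of genes in CD8 T cells were higher by 1.5-fold, and at 5 CPM 2.3% were higher by 2-fold. Low counts limit Xcl1 outside CD8 T cells, Xcr1 in every class and all B cell ratios.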
